A study of Mus musculus with 8 samples.

Results

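The choroid plexus epithelium is the sheet of secretory cells that makes cerebrospinal fluid in the brain ventricles. Its cells secrete carrier proteins, move sodium, bicarbonate, potassium and water across the sheet, and join to each other through leaky tight junctions. They form early in development from the dorsal midline of the neural tube, where the homeodomain factor OTX2 is required for their identity. The genes described here are 10 that are known from this epithelium, Ttr, Enpp2, Kcnj13, Aqp1, Clic6, Slc4a5, Folr1, Kl, Cldn2 and Otx2, read by symbol from the deposited table of 23401 genes. All 10 were found. They were chosen as a named set with earlier results from the same libraries in view, Ttr among the most increased genes at day 5 being one of those results. Their levels are therefore given as a description, with no p-value for any of them, and counts of members called in the model over all genes stand only beside the share of all genes called. None of the 10 is particular to the choroid plexus: Enpp2 is also an oligodendrocyte gene, Aqp1 and Kl are kidney genes as well, and Kcnj13 and Otx2 are used in the retinal pigment epithelium.

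RNA was sequenced from mouse astrocytes in a conventional culture, CV, and in a culture named MGS, whose letters the labels do not explain. The sample descriptions use the word hard for CV and soft for MGS. The 8 libraries are 2 of each culture from day 5 and 2 of each from day 32. The labels give no strain, age or further treatment, and do not say whether the libraries of a group came from separate cultures, so that the spread between them may be technical.

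Levels are in TPM, a share of transcripts that is scaled for transcript length and to an equal total in every library, and a group is given as its mean ± SD (n = 2). The aligned sequence behind a library, recovered from the deposited coverage, was 3.90 to 4.69 gigabases in MGS and 2.15 to 2.99 in CV. Replicates were closest in MGS, where the log2 ratio between replicates had an SD over genes of 0.191 and 0.197, against 0.321 at day 5 and 0.465 at day 32 in CV. All 7 astrocyte markers examined were read in every group, with a summed level of 12903 to 16473 TPM in MGS and 1220 to 3270 TPM in CV. Gfap was the largest part of the sum in every library and most of it in MGS. Of the 7, 4 were called higher in MGS and 1 lower at day 5, and 6 higher and 1 lower at day 32, the lower one being Aldh1l1 (log2 differences -0.69 and -0.61). At day 32 the CV libraries also held 10467 to 12417 TPM of 6 microglia markers, against 868 to 887 TPM in MGS. Most of either sum was Lyz2, with means of 10316 TPM in CV and 687 TPM in MGS. In bulk RNA, fewer cells of a kind and less RNA per cell cannot be told apart.

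Promoter sequences are shown first, because their letters can be read independently of the expression values. They are those of Kcnj13 and Cldn2, both higher in MGS at both days, and of Otx2, whose pattern differed from theirs. RefSeq (GRCm38.p6) gave a window from 250 bases before to 50 after the start site for 6 of the 10 genes, 9 windows in all, of which Otx2 had 4. The core TAATCC that OTX2 binds (GGATTA on the other strand) was in 1 of the 9 windows, that of 1 of the Otx2 starts, and 7.06% of all 32851 windows hold it. The TATA-like core TATAAA, read on either strand, was in 4 of the 9 windows, those of Kcnj13, Slc4a5, Cldn2 and a further Otx2 start, against 13.62% of all windows. It began 29 bases before the start site in Kcnj13 and 35 bases before it in Cldn2, but 127 bases before it in Slc4a5 and 192 bases in Otx2. The windows of Kcnj13 and Cldn2, with TATAAA in capitals, and that Otx2 window with GGATTA in capitals read as follows, 5′ to 3′ on the strand of the gene. Kcnj13 is at chr1:87394680-87394979 (minus strand), Cldn2 at chrX:139800558-139800857 (plus strand) and Otx2 at chr14:48665060-48665359 (minus strand).
Kcnj13: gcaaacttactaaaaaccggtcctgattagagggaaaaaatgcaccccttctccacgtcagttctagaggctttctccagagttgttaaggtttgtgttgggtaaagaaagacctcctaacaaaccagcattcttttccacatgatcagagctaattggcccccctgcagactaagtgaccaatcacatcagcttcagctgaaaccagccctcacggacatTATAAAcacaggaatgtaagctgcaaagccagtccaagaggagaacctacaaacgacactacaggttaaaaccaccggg
Cldn2: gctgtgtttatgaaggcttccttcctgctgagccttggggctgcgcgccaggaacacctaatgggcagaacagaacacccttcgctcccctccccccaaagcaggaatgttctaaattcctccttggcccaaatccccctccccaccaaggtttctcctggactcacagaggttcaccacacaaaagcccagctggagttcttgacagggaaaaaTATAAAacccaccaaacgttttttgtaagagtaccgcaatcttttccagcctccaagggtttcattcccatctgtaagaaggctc
Otx2: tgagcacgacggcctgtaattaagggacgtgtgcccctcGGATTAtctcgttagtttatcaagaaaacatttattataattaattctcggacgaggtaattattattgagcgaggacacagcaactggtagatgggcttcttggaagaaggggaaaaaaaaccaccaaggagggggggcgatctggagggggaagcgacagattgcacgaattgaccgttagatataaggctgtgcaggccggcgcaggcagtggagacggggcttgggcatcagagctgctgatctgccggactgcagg
The Otx2 window lies upstream of the Otx2 span in the deposited files and belongs to another annotated start. The 2 motifs share no letters in these windows, and a match is a description of the letters only.

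In MGS the levels of the 10 genes ran from Kl at day 5, or Slc4a5 at day 32, as the lowest up to Ttr as the highest. In CV, Kcnj13, Aqp1, Clic6, Slc4a5, Kl and Cldn2 were below 5 TPM in every library, while Ttr and Folr1 were above 20 TPM in every library. At day 5 the libraries of MGS lay above those of CV for 9 of the 10, and at day 32 for all 10. Otx2 was the exception, since at day 5 it was the higher in CV. Of all 14904 genes tested, the MGS libraries lay above those of CV without overlap for 34.4% at day 5 and 63.6% at day 32, and below for 49.2% and 20.9%. When all genes were fitted at once with limma on log2(TPM + 1), with Benjamini-Hochberg adjustment, 9 members were called higher in MGS at day 5 and 1 lower, where 48.9% of all genes tested were called, 22.5% higher and 26.4% lower. At day 32 all 10 were called higher, where 67.6% of all genes were called, 52.8% higher and 14.8% lower. The higher share of the calls at day 32 was 78.0% in TPM, 61.3% in FPKM, 49.8% after median-of-ratios scaling and 47.1% after quantile normalization, and 9 of the 10, all but Folr1, were called under each of the last pair. Nothing is read from these shares, since the genes were chosen with these contrasts in view. Kl and Slc4a5 reached the level required for testing (1 TPM in 2 libraries) through the 4 MGS libraries alone.

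**Figure D1:**
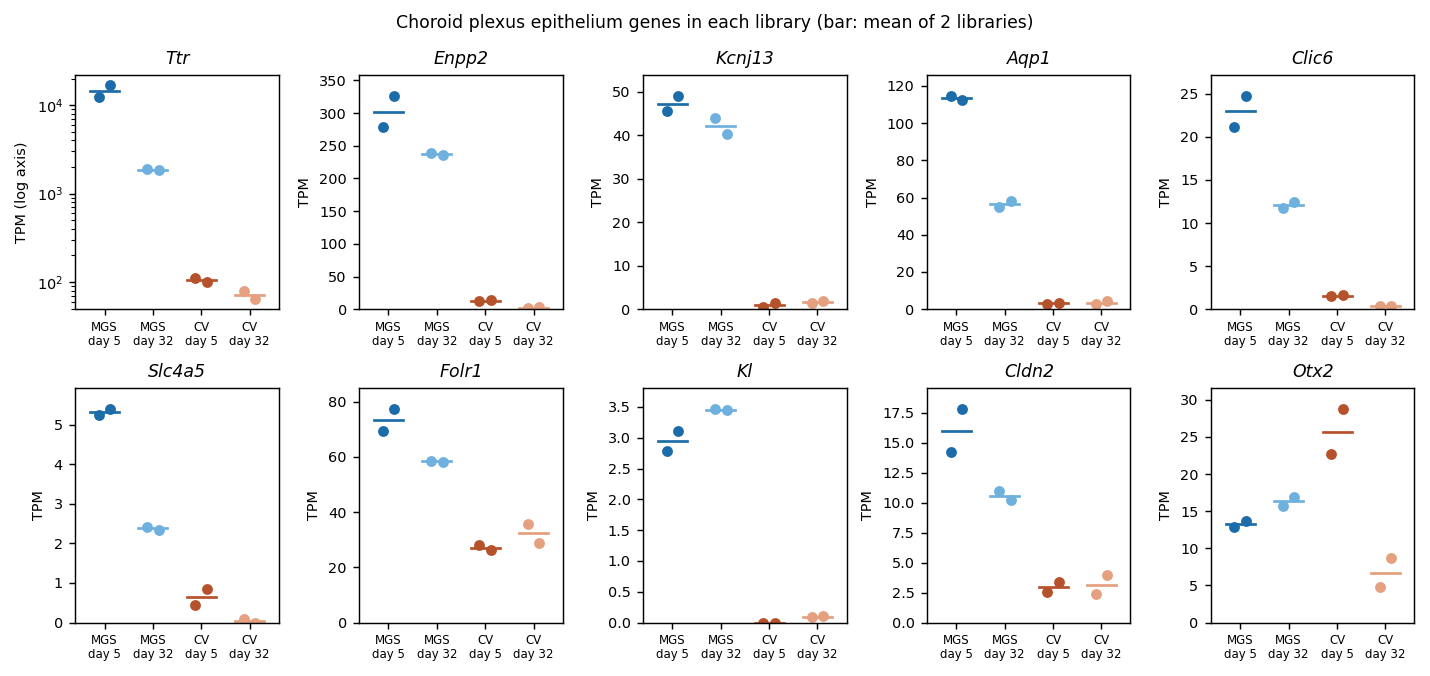
TPM of the 10 choroid plexus epithelium genes in each of the 8 libraries, by culture and day. Points are libraries and bars the means of 2 libraries, and the Ttr axis is logarithmic while the others start at 0. The MGS points lie above the CV points in every panel except that of Otx2, where CV at day 5 is highest.

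Among the secreted proteins, Ttr encodes transthyretin, which carries thyroxine and, with retinol binding protein, retinol in cerebrospinal fluid and plasma (chromosome 18, 20665250 to 20674326, plus strand, mm10). Ttr stood at 12453 and 16841 TPM in the MGS libraries at day 5, at 110 and 101 TPM in CV at day 5, at 1878 and 1857 TPM in MGS at day 32, and at 78.9 and 65.1 TPM in CV at day 32. It was the most abundant of the 10 in each library, and in MGS at day 5 it ranked 3 and 2 among all genes and took 1.25% and 1.68% of all TPM. In CV it ranked between 1714 and 2851. The mean ratio of MGS to CV was 138 at day 5 and 25.9 at day 32, and the differences in log2(TPM + 1) were 7.08 (SE 0.16) and 4.68 (SE 0.16). Within MGS the mean at day 32 was 7.84 times lower than at day 5, a log2 difference of -2.95 (SE 0.16) that placed Ttr 9 from the lowest of all genes tested. The MGS libraries of day 5 were the least alike for Ttr, with a ratio of 0.739 between them. An antisense RNA, Gm16090, overlaps the Ttr gene in the GENCODE annotation of GRCm38 and was not analysed here.

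Enpp2 encodes autotaxin, a secreted phospholipase D that makes lysophosphatidic acid (chromosome 15, 54838898 to 54920146, minus strand). Enpp2 stood at 278 and 326 TPM in MGS at day 5, at 12.02 and 14.7 TPM in CV at day 5, at 240 and 235 TPM in MGS at day 32, and at 1.67 and 2.98 TPM in CV at day 32. It was the second most abundant of the 10 in MGS at both days. The ratio of MGS to CV means was 22.7 at day 5 and 102 at day 32. Unlike Ttr, whose day 32 level was far below its day 5 level in MGS, Enpp2 differed most between the days in CV, where the mean at day 32 was 5.73 times below that at day 5. Ttr was 44.7 and 51.6 times as abundant as Enpp2 in the MGS libraries at day 5 and 7.84 and 7.89 times at day 32.

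The ion and water genes Kcnj13, Aqp1, Clic6 and Slc4a5 were all higher in MGS at both days, and none of them was above 5 TPM in any CV library. Kcnj13 encodes the inward rectifier potassium channel Kir7.1 of the apical membrane (chromosome 1, 87386284 to 87394729, minus strand). Kcnj13 stood at 45.5 and 49.1 TPM in MGS at day 5 and at 44.0 and 40.3 TPM in MGS at day 32, against 0.604 and 1.45 TPM in CV at day 5 and 1.54 and 1.78 TPM in CV at day 32. The 4 MGS libraries were thus close to each other over both days, and the log2 difference between the cultures was 4.61 (SE 0.22) at day 5 and 4.02 (SE 0.22) at day 32. Kcnj13 lies inside Gigyf2, which is read from the opposite strand. Gigyf2 stood at 26.7 to 28.2 TPM in MGS and 31.5 to 37.0 TPM in CV at day 5, below CV where Kcnj13 was above it, and at 41.6 to 42.8 TPM in MGS and 12.3 to 22.8 TPM in CV at day 32. The libraries came from a directional kit, but whether strand was used in assigning reads is not given in the sources used here.

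Aqp1 encodes the water channel aquaporin-1, which lets water follow salt into the fluid (chromosome 6, 55336299 to 55348555, plus strand). Aqp1 stood at 115 and 113 TPM in MGS at day 5 and at 54.7 and 58.1 TPM in MGS at day 32, against 3.03 and 3.41 TPM in CV at day 5 and 2.56 and 4.29 TPM in CV at day 32. In MGS the libraries of the 2 days did not overlap and the day 5 mean was 2.01 times that of day 32, while in CV they overlapped.

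Clic6 encodes an intracellular chloride channel-like protein (chromosome 16, 92498147 to 92541241, plus strand). Clic6 stood at 21.2 and 24.7 TPM in MGS at day 5 and at 11.8 and 12.4 TPM in MGS at day 32, against 1.53 and 1.63 TPM in CV at day 5 and 0.433 and 0.398 TPM in CV at day 32. It was lower at day 32 in both cultures, and its difference in log2(TPM + 1) between the cultures was 3.21 (SE 0.15) at either day. That equality did not hold under other settings, where Clic6 stood at 3.36 and 2.80 after median-of-ratios scaling and 3.77 and 4.56 with a pseudocount of 0.1. Slc4a5 encodes NBCe2, a sodium bicarbonate cotransporter of the apical membrane (chromosome 6, 83237375 to 83304945, plus strand). Slc4a5 stood at 5.24 and 5.39 TPM in MGS at day 5 and at 2.40 and 2.35 TPM in MGS at day 32, against 0.444 and 0.858 TPM in CV at day 5. In CV at day 32 it was at 0.0920 TPM in replicate 1 and listed at 0 in replicate 2, so no ratio is given for that day. The deposited coverage of Slc4a5 was 0.161 reads per base or less in those CV libraries and 4.45 or more in MGS, so its CV values rest on few reads.

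The receptor genes differed in how far the cultures were apart. Folr1 encodes folate receptor alpha, which carries folate across the epithelium into the fluid (chromosome 7, 101858331 to 101870788, minus strand). Folr1 stood at 69.5 and 77.3 TPM in MGS at day 5 and at 58.5 and 58.2 TPM in MGS at day 32, against 27.9 and 26.3 TPM in CV at day 5 and 35.7 and 28.9 TPM in CV at day 32. With Ttr it was 1 of 2 members above 20 TPM in every library, and its ratio between the culture means was small, 2.71 at day 5 and 1.81 at day 32. At day 32 the log2 difference of Folr1 of 0.84 (SE 0.13) became 0.22 after median-of-ratios scaling, which sets the median log2 difference of all genes from 0.56 to -0.01. Folr1 overlaps Anapc15 on the opposite strand, which was higher in CV, at 85.2 to 89.4 TPM at day 5 against 42.0 to 43.9 TPM in MGS.

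Kl encodes Klotho, the coreceptor for the hormone FGF23, whose shed form enters the fluid (chromosome 5, 150952607 to 150993817, plus strand). Kl stood at 2.78 and 3.12 TPM in MGS at day 5 and at 3.46 and 3.45 TPM in MGS at day 32. It was listed at 0 in both CV libraries at day 5 and stood at 0.0842 and 0.111 TPM in CV at day 32. It was the lowest of the 10 in MGS at day 5, and it differed little between the days there.

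Cldn2 encodes claudin-2, the pore-forming claudin of leaky tight junctions (chromosome X, 139800808 to 139811388, plus strand). Cldn2 stood at 14.2 and 17.8 TPM in MGS at day 5 and at 10.98 and 10.2 TPM in MGS at day 32, against 2.53 and 3.42 TPM in CV at day 5 and 2.40 and 3.94 TPM in CV at day 32. The ratio of MGS to CV means was 5.38 at day 5 and 3.34 at day 32, and the CV libraries of the 2 days overlapped. The day 32 log2 difference of Cldn2, 1.501, was 0.97 after median-of-ratios scaling and 0.54 after quantile normalization.

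**Figure D2:**
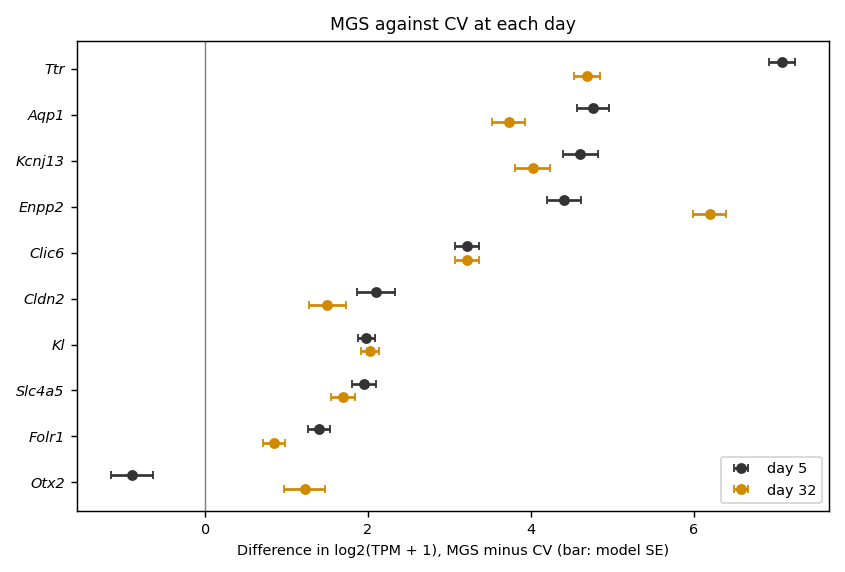
Difference between MGS and CV in log2(TPM + 1) for each gene at day 5 and day 32, with bars for the standard error of the model. Values above 0 are higher in MGS. Ttr is farthest to the right at day 5 (7.08) and Enpp2 at day 32 (6.19), and Otx2 alone lies on both sides of 0.

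Otx2, the transcription factor of the set, had a pattern that no other member had (chromosome 14, 48658184 to 48662872, minus strand). Otx2 stood at 12.9 and 13.6 TPM in MGS at day 5, at 22.7 and 28.7 TPM in CV at day 5, at 15.7 and 17.0 TPM in MGS at day 32, and at 4.72 and 8.64 TPM in CV at day 32. The MGS libraries lay below CV at day 5 and above CV at day 32, with log2 differences of -0.90 (SE 0.25) and 1.22 (SE 0.25). The 4 MGS libraries stayed between 12.9 and 17.0 TPM, and the CV mean was 3.85 times lower at day 32 than at day 5. In CV at day 5, the group in which Otx2 was highest, Kcnj13, Aqp1, Clic6, Slc4a5, Kl and Cldn2 were each below 4 TPM. The day 32 difference of Otx2 was 0.65 after median-of-ratios scaling and 0.33 after quantile normalization, and the day 5 difference -0.71 and -0.72. Otx1, its paralog, named here after its values were seen, stood at 23.9 and 24.3 TPM in CV and 8.59 and 8.74 TPM in MGS at day 5. At day 32 Otx1 stood at 5.97 and 11.2 TPM in CV and at 10.8 and 11.5 TPM in MGS, where the cultures overlapped.

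Over the 8 libraries, which form 4 pairs of replicates, the correlation of log2(TPM + 1) between any 2 of the 9 genes other than Otx2 lay between 0.88 and 0.993, and that of Otx2 with the others between -0.087 and 0.379. The points share the contrast of the cultures, so these values describe that contrast above all. By level, the order in MGS at day 5 was Ttr, Enpp2, Aqp1, Folr1, Kcnj13, Clic6, Cldn2, Otx2, Slc4a5 and Kl, and the libraries of no 2 neighbours in this order overlapped. In MGS at day 32 Folr1 stood just above Aqp1, Otx2 above Clic6, and Kl above Slc4a5, again without overlap between neighbours. In CV at day 5 the order was Ttr, Folr1, Otx2, Enpp2, Aqp1, Cldn2, Clic6, Kcnj13, Slc4a5 and Kl, with Folr1 and Otx2, Aqp1 and Cldn2, and Kcnj13 and Slc4a5 overlapping. In CV at day 32 the order was Ttr, Folr1, Otx2, Aqp1, Cldn2, Enpp2, Kcnj13, Clic6, Kl and Slc4a5, and the libraries of Aqp1 and Cldn2, Cldn2 and Enpp2, Enpp2 and Kcnj13, and Kl and Slc4a5 overlapped.

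From day 5 to day 32 within MGS the 10 genes did not all move in the same direction in TPM. The day 32 libraries lay below those of day 5 without overlap for 8 of them and above for 2, as for 20.7% and 67.9% of all genes tested. Called members numbered 4, all lower at day 32, where 42.5% of all genes were called, 7.53% lower and 35.0% higher. Higher calls were 82.3% of all calls in TPM and 49.8% after median-of-ratios scaling, under which 8 members were called. Without 1 library 3 to 7 members were called, with 7 without either CV library of day 32. The differences in log2(TPM + 1) were largest for Ttr (-2.95, SE 0.16), and those of Enpp2 (-0.34, SE 0.20), Folr1 (-0.32, SE 0.13), Cldn2 (-0.54, SE 0.23) and Kcnj13 (-0.16, SE 0.22) were smaller. Kl (0.18, SE 0.11) and Otx2 (0.28, SE 0.25) were higher at day 32 in TPM, but both were lower after median-of-ratios scaling (-0.15 and -0.13) and quantile normalization (-0.35 and -0.32). Ttr made up 95.7% and 96.4% of the summed TPM of the 10 genes in MGS at day 5 and 81.0% and 80.9% at day 32.

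Within CV 5 members were called, all lower at day 32, where 53.7% of all genes were called, 37.7% lower and 16.0% higher. Higher calls were 29.8% of all calls in TPM and 50.7% after median-of-ratios scaling. The libraries of the 2 days did not overlap for 8 members, 5 lower and 3 higher at day 32, as for 49.8% and 22.3% of all genes. 1 of the 5 was Slc4a5, which was tested only because of its MGS levels and was below 1 TPM in every CV library. 1 of the 3 was Kl, also tested only because of its MGS levels. In CV, Kl was listed at 0 in both libraries at day 5 and stood at 0.0842 and 0.111 TPM at day 32. Enpp2 (-2.13, SE 0.20) and Otx2 (-1.84, SE 0.25) differed most. Kcnj13 (0.42, SE 0.22) and Folr1 (0.24, SE 0.13) were somewhat higher at day 32. The difference of Kcnj13 rests on its low day 5 values, and it was 0.12 without CV day 5 replicate 1 and 0.73 without CV day 5 replicate 2. In the culture by day interaction, the difference of the 2 culture effects, the values were 1.79 (SE 0.29) for Enpp2, 2.12 (SE 0.36) for Otx2, -2.40 (SE 0.23) for Ttr, -1.04 (SE 0.28) for Aqp1 and -0.56 (SE 0.19) for Folr1. Called members numbered 5 (3 to 6 without 1 library, with 3 without any 1 MGS library), where 62.0% of all genes were called, 49.7% above 0 and 12.3% below. Calls above 0 were 80.1% of all calls in TPM and 47.1% after median-of-ratios scaling, under which 9 members were called.

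**Figure D3:**
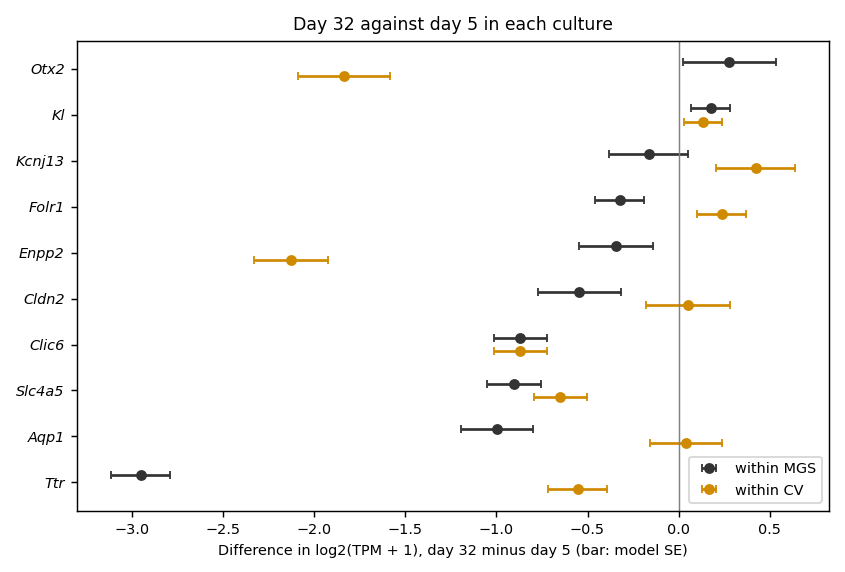
Difference between day 32 and day 5 in log2(TPM + 1) within MGS and within CV, with bars for the standard error of the model. Values below 0 are lower at day 32. Ttr has the lowest value in MGS (-2.95), and Enpp2 (-2.13) and Otx2 (-1.84) the lowest in CV.

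A list of 51 other genes known from the choroid plexus epithelium was read next, chosen by role and not by how they moved, although earlier results of these libraries were known. Of these, 50 were in the files and 49 were tested. Kcne2, Kcnq1, Slc13a4, Slc22a8, Stra6, Cldn3, Cdh1, Htr2c, Tmem72 and Gmnc did not reach 1 TPM in 2 CV libraries. They were tested through their MGS levels, and the counts of genes higher in MGS that follow include such genes. At day 5, 30 rose in MGS against CV and 10 fell, with a median log2 difference of 1.24 beside -0.14 for all genes tested. At day 32, 37 were higher and 6 lower, with a median of 1.69 beside 0.56. Of all genes tested, 22.5% were called higher and 26.4% lower at day 5, and 52.8% and 14.8% at day 32, which are also the shares to set beside the counts by role that follow. From day 5 to day 32 within MGS 10 rose and 14 fell, beside 35.0% and 7.53% of all genes, and within CV 12 rose and 19 fell, beside 16.0% and 37.7%. The split within MGS was 10 and 24 after median-of-ratios scaling and 12 and 23 after quantile normalization. It was 9 and 7 without MGS day 5 replicate 2, 9 and 9 without either MGS library of day 32, and 18 and 18 without either CV library of day 32.

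Genes of ion transport and of solute transport were among those higher in MGS. Of 12 ion transport genes, 6 rose and 3 fell at day 5, and 9 were higher and 0 lower at day 32. Slc4a10, a sodium-dependent bicarbonate transporter of the basolateral membrane, was at 13.4 ± 2.19 TPM in MGS and 3.21 ± 1.07 in CV at day 5, and at 33.3 ± 0.303 and 0.345 ± 0.124 TPM at day 32 (log2 differences 1.78 and 4.67). Trpm3, a cation channel abundant in this epithelium (2.82 and 3.71), and Kcne2, a potassium channel subunit of its apical membrane (3.15 and 2.71), were higher at both days. The cation channel gene Trpv4 was too (2.37 and 1.24), but its day 32 difference was 0.22 with quantile normalization (limma, adjusted p = 0.17). Of 10 solute transport genes 5 rose and 2 fell at day 5, and 8 were higher and 1 lower at day 32. The sulfate transporter gene Slc13a4 was at 126 ± 8.86 TPM in MGS and 1.07 ± 0.257 in CV at day 5 (5.95, SE 0.16, limma adjusted p = 6.69e-07). The organic anion transporter gene Slc22a8 (5.56) and the retinol transporter gene Stra6 (7.15) rose too.

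Of 10 secreted protein genes 7 rose and 2 fell at day 5, and 5 were higher and 4 lower at day 32. The growth factor gene Igf2 (6.07 and 4.08) and Lbp, the lipopolysaccharide binding protein gene (5.64 and 3.44), were higher in MGS at both days. Igfbp2, which encodes an IGF binding protein, was lower at both (-2.73 and -2.85), at 1828 ± 73.4 TPM in MGS and 12373 ± 3516 in CV at day 5. The transferrin gene Trf was higher in MGS at day 5 (3.82) and lower at day 32 (-1.36). Of 8 epithelial genes 5 rose and 1 fell at day 5, and 7 were higher and 1 lower at day 32. The E-cadherin gene Cdh1 stood at 98.2 ± 3.89 and 105 ± 0.906 TPM in MGS at the 2 days and at 0.382 ± 0.138 and 0.277 ± 0.119 in CV, and the keratin genes Krt8 and Krt18 were higher in MGS at both days. The Krt18 call at day 5 (1.88) was lost with a pseudocount of 0.1 (limma adjusted p = 0.0612). Tjp1, the tight junction scaffold gene, differed at day 32 (2.65) and was not called at day 5 (0.30, limma adjusted p = 0.548).

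Of 5 receptor and other epithelial genes tested, 4 rose and 1 fell at day 5, and 4 were higher and 0 lower at day 32. They were the leptin receptor gene Lepr (5.02 and 3.23), the serotonin receptor gene Htr2c, abundant in this epithelium (2.66 and 2.47), Tmem72 (2.37 and 1.98) and Calml4 (1.98 and 2.60). Of 4 transcription factor genes tested, 3 rose and 1 fell at day 5 and all 4 were higher at day 32. Msx1, a homeobox gene of the dorsal midline (2.37 and 1.78), Foxj1, the regulator of motile cilia, which is also an ependymal marker (0.70 and 1.89), and Gmnc, a regulator of multiciliated cells (0.97 and 3.56), were higher at both days. The Gmnc call at day 5 was lost without MGS day 5 replicate 2 (limma adjusted p = 0.0542). Lmx1a, a roof plate gene, was lower in MGS at day 5 (-0.73) and higher at day 32 (0.78), the order that Otx2 also had. The day 5 call of Lmx1a was lost without MGS day 5 replicate 1 (limma adjusted p = 0.0503), and the day 32 difference was 0.34 after median-of-ratios scaling (adjusted p = 0.0596) and -0.22 after quantile normalization (0.228).

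**Figure D4:**
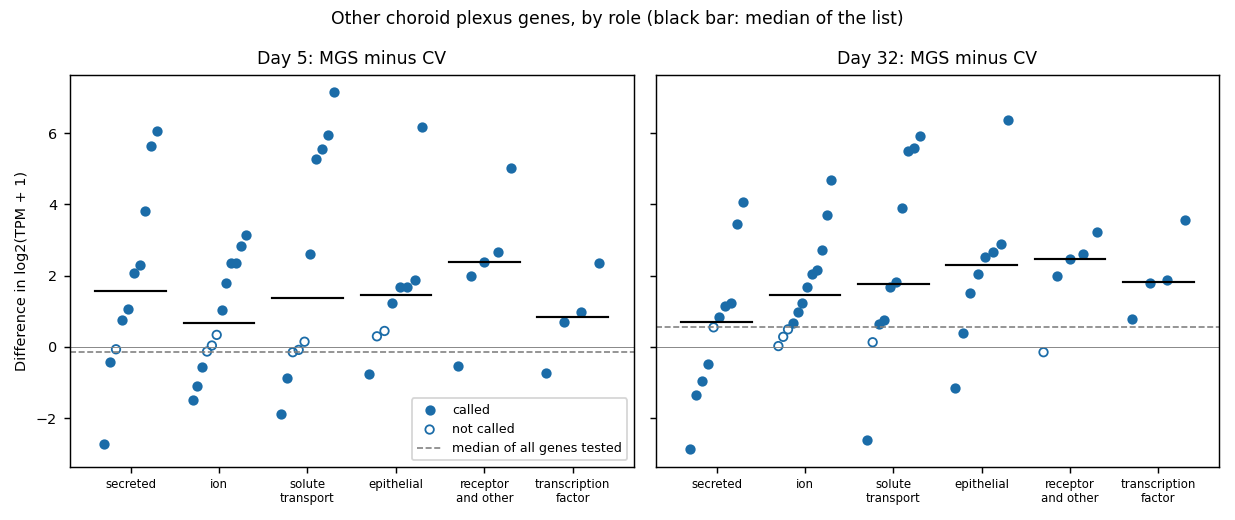
Difference between MGS and CV in log2(TPM + 1) at day 5 and day 32 for 49 other choroid plexus genes, grouped by role. Filled points were called by limma at an adjusted p under 0.05, black bars are list medians and the dashed line is the median of all genes tested (-0.14 at day 5 and 0.56 at day 32). All 6 list medians lie above the dashed line at both days.

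Genes that act with the members or are related to them were read from lists of 25 genes, 23 of them tested. Of these, 6 rose and 8 fell in MGS at day 5, and 16 were higher and 3 lower at day 32. Their median log2 difference was -0.22 at day 5 and 1.19 at day 32, beside -0.14 and 0.56 for all genes. Of all genes tested, 22.5% were called higher and 26.4% lower at day 5, and 52.8% and 14.8% at day 32. Those are also the shares to set beside the counts that follow. Of 7 genes of thyroid hormone and retinol transport 3 rose and 1 fell at day 5, and 6 were higher at day 32. Rbp4, the retinol binding protein that travels with transthyretin, was at 3.82 ± 0.0904 TPM in MGS and listed at 0 in both CV libraries at day 5, and at 12.2 ± 0.38 and 0.259 ± 0.366 TPM at day 32. The thyroid hormone receptor gene Thra was higher in MGS at both days (0.84 and 2.35). Of 5 genes of lysophosphatidic acid reception, through which the product of autotaxin acts, 0 rose and 3 fell at day 5, and 4 were higher and 1 lower at day 32. The receptor gene Lpar6 was lower at both days (-2.54 and -1.74), and Lpar3 was higher at day 32 (2.09). Rbp4 and Lpar3 were below 1 TPM in every CV library and were tested through their MGS levels alone. Of 5 folate genes 3 rose and 1 fell at day 5. The reduced folate carrier gene Slc19a1 was higher in MGS at both days (1.36 and 1.36), and Folr2, a folate receptor gene of macrophages, was higher in MGS at day 5 (2.76) and lower at day 32 (-2.82). Of the genes listed with Klotho, the FGF receptor gene Fgfr3 was lower in MGS at day 5 (-0.70) and higher at day 32 (2.24). Fgfr1, another FGF receptor gene, was called at neither day (-0.38 and 0.37, limma adjusted p = 0.111 and 0.0951). Fgf23 and Klb were below the level required for testing. The day 5 call of Fgfr3 was lost without any 1 of the 6 libraries other than those of CV at day 32 (limma adjusted p from 0.0566 to 0.127). Of 4 other aquaporin genes 0 rose and 2 fell at day 5. Aqp4, the astrocyte water channel gene, was not called at day 5 (-0.01, SE 0.35, limma adjusted p = 0.979) and was higher in MGS at day 32 (3.11, SE 0.35), while Aqp1 was higher in MGS at both.

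Markers of other barrier and ventricular cells differed between the cultures in the same libraries. The summed level of 9 meningeal markers was 4328 to 4388 TPM in MGS and 309 to 325 TPM in CV at day 5, and 2449 to 2490 and 240 to 382 TPM at day 32. All 9 were called higher in MGS at both days, none was at 0 in a group, and of the genes above Igf2, Slc13a4, Slc22a8 and Cdh1 are also known from meningeal cells. Of the 9, Lum and Slc6a13 did not reach 1 TPM in 2 CV libraries and were tested through their MGS levels. The summed level of 6 ependymal markers was 464 to 484 TPM in MGS and 171 to 187 TPM in CV at day 5, and 1345 to 1363 and 254 to 264 TPM at day 32, with Tmem212 listed at 0 in all CV libraries. Most of the sum in CV was Foxj1, with means of 157 and 175 TPM at the 2 days. Foxj1 is also counted above among the choroid plexus transcription factor genes. From day 5 to day 32 in MGS the summed level of the 10 choroid plexus genes was lower (13017 to 17471 TPM, then 2295 to 2319), mostly through Ttr, since the other 9 genes summed to 564 to 629.9 TPM and then 437 to 441 TPM. The meningeal sum was lower too, and the ependymal sum was higher. The 6 oligodendrocyte markers summed to 1306 to 1352 TPM in MGS at day 5, 720 to 731 TPM in MGS at day 32 and 7.59 to 18.8 TPM in CV. Mog was listed at 0 in all CV libraries. Most of the sum in MGS was Cldn11, with means of 946 and 589 TPM at the 2 days. Mbp had means of 284 and 80.0 TPM there, and Mog of 2.15 and 1.84 TPM. The 6 endothelial markers summed to 214 to 217 TPM in MGS and 22.8 to 32.0 TPM in CV at day 5, and to 165 to 178 and 61.1 to 105 TPM at day 32. Of these 6, 4 were called higher in MGS at day 5 and 1, Cdh5, at day 32, when Cldn5, Pecam1 and Tie1 each had a mean below 0.1 TPM in both cultures. Cldn5, Pecam1 and Tie1 reached the level required for testing only through MGS at day 5. The 6 microglia markers summed to 726 to 751 TPM in MGS and 105 to 125 TPM in CV at day 5. Of these sums, Lyz2 had means of 625 TPM in MGS and 30.2 TPM in CV. The 6 retinal pigment epithelium markers summed to 44.0 to 45.3 TPM in MGS at day 5 and 20.5 to 21.0 TPM at day 32, and to 27.8 to 27.95 and 4.13 to 5.05 TPM in CV. Of these 6, Best1 was listed at 0 in CV at day 5 and Lrat in CV at day 32. Rlbp1 made up most of the sum, with 38.3 TPM in MGS at day 5, except in CV at day 32, where it stood at 1.90 ± 0.489 TPM. Rpe65 was lower in MGS at both days (-0.74 and -0.55). The part of these cells in the levels of the choroid plexus genes was not tested.

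**Figure D5:**
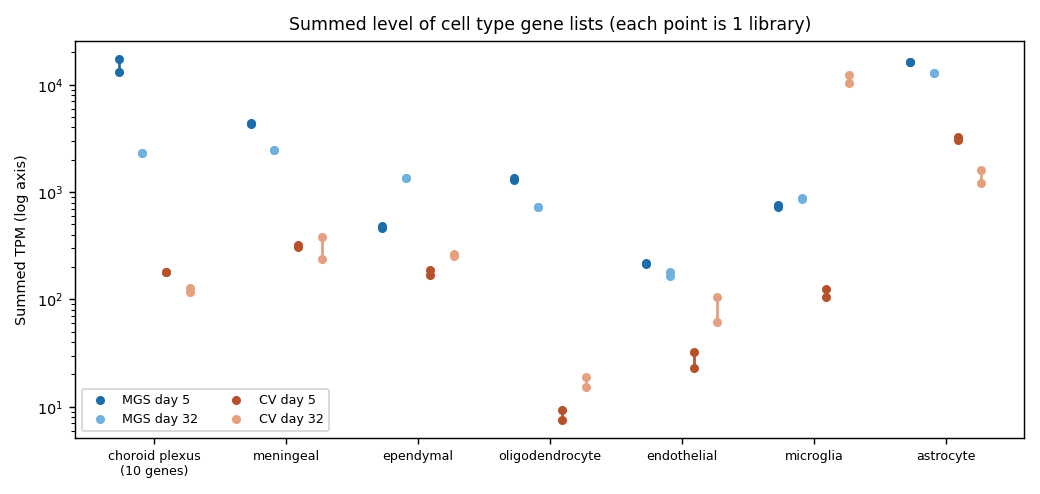
Summed TPM, on a logarithmic axis, of the 10 choroid plexus genes and of the marker lists of 6 other cell types in each library, by culture and day. Each point is 1 library. The choroid plexus sum is highest in MGS at day 5 (13017 to 17471 TPM) and lowest in CV at day 32 (116 to 128 TPM).

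The genes most like Ttr over the 8 libraries, by Pearson correlation of log2(TPM + 1) among 10817 genes with at least 10 TPM in 2 or more libraries, were Bmp5, Ripply1, Qprt, Rnf122, Sp5, Ier3, C1qtnf2 and Cfb, with r from 0.9926 to 0.9965. Bmp5, a bone morphogenetic protein gene, had a mean of 17.4 TPM in MGS and 0.0432 in CV at day 5, and at 5.52 TPM in MGS and listed at 0 in CV at day 32. Among the genes most like the mean standardized pattern of the 10 members were Col6a3, Scara3, Fam180a, Adamts15, Fbn2, Cxcl12 and Fbln1, with r from 0.9959 to 0.9981. Col6a3, a collagen chain gene, had means of 47.6 TPM in MGS and 1.25 in CV at day 5, and at 26.5 and 0.0666 TPM at day 32. The 8 libraries form 4 pairs, so these correlations describe patterns over few independent points.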

How the data were processed

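RNA from 8 mouse astrocyte libraries was read from the authors' deposited gene tables, which hold coverage, FPKM and TPM per gene per the file headers. StringTie 1.3.4d, HISAT2 2.1.0 and bcl2fastq are the tools that the submitters' processing notes list, together with builds hg38 and mm10, whose roles are not given. The annotation, filters and use of strand are not given in the sources used here. TPM keeps no depth, so aligned bases were recovered from the deposited coverage and FPKM, and no counting interval could be given. Gene IDs with several entries were summed, and the 10 members, with 1 entry each, equalled the series table. Genes with at least 1 TPM in 2 libraries (14904) were tested on log2(TPM + 1) with limma 3.58.1 in R 4.3.3, as 1 fit of the 4 group means with a trended prior and Benjamini-Hochberg adjustment at 0.05. The pseudocount understates the differences of low genes. The fit has 4 residual degrees of freedom.

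The members and gene lists were chosen with earlier results of these data known. Genes named from a list were up to 4 with the largest log2 differences among those called between the cultures, and a few others where the text needed them. Genes likest Ttr or the members' mean were the 8 with the highest correlation among genes with 10 TPM in 2 libraries. Alternatives were FPKM, median-of-ratios scaling, quantile normalization, a pseudocount of 0.1, no filter, the series table, a replicate block and leaving out each library. A few genes that these rules select are not reported here.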

Additional observations from a re-analysis of the deposited data

Results flagged for a closer look

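Several genes differed between MGS and CV in opposite directions at the 2 days. Among the choroid plexus genes, Otx2 was lower in MGS in both libraries at day 5 and higher in both at day 32, a difference of 2.12 between the log2 differences, which is given as a description with no p-value because the gene was chosen with its values in view. The culture by day interaction in limma, adjusted over all genes tested, was -5.17 for Trf (adjusted p = 2.67e-06), -5.58 for Folr2 (7.89e-06), 2.94 for Fgfr3 (0.000319), 3.10 for Lpar4 (0.00235), 1.51 for Lmx1a (0.00088) and 1.23 for Aqp9 (0.00145). The day 32 call of Lpar4 (1.11) was lost with FPKM (0.68, limma adjusted p = 0.0642), median-of-ratios scaling (0.56, 0.118) and quantile normalization (0.17, 0.553). Folr2, which macrophages express, stood at 54.2 ± 1.96 TPM in CV at day 32, the group in which the microglia markers were highest, and at 0.282 ± 0.133 TPM in CV at day 5. The part of microglia in this value was not tested.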

How the results depend on the processing

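The libraries number 2 a group and no depth is kept in TPM, which limits all tests. The members' median log2 difference was 2.65 at day 5 and 2.62 at day 32. It was 4.13 and 4.17 with a pseudocount of 0.1, 2.39 and 1.75 with FPKM, and at day 32 2.27 with median-of-ratios scaling and 1.70 with quantile normalization. The median within MGS (-0.44) was -0.86 and -0.93 with those last scalings, and that within CV (-0.26) was 0.00037 with median-of-ratios scaling. The median interaction (-0.41) was -0.68 with FPKM, -0.95 with median-of-ratios scaling, -0.91 with quantile normalization, and between -0.48 and -0.18 without any 1 library. Members called within MGS numbered 4, against 8 to 9 under the other scalings, and in the interaction 5, against 9 to 10. Of the other choroid plexus genes in the interaction, 19 were called above 0 and 13 below, against 12 and 20 with median-of-ratios scaling. At day 32 Slc46a1 (0.45) was -0.15 with median-of-ratios scaling and -0.34 with quantile normalization, which also gave -0.21 for Aqp9 and -0.22 for Lmx1a. All genes called numbered 7291 at day 5, 6335 within MGS and 7997 within CV. Leaving out 1 library gave 4429 to 10095, 2180 to 9733 and 4748 to 10583. The lowest counts came without an MGS library at day 5 (4464 and 4429) and within MGS (2371 and 2668 without those of day 5, 2336 and 2180 without those of day 32), and the highest within MGS without a CV library of day 32 (9720 and 9733). Within CV the lowest came without CV day 5 replicate 2 (4748).

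With a replicate block 7894 genes were called at day 5, 10440 at day 32, 7209 within MGS, 8529 within CV and 9568 in the interaction, against 10075 at day 32 and 9243 in the interaction without it. The other choroid plexus genes called were 40, 45, 29, 31 and 35. The labels do not say that the replicate numbers pair libraries. The deviations of same-numbered libraries correlated between -0.131 and 0.444 over 6 pairs of groups, above 0.1 in 2 of them, so the block was not used for the reported values.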
